A study of Mus musculus with 13 samples.

Results

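Trps1, Enpp3, Fnip1, Tmem170b and Cpt1a are 5 mouse genes whose course over 6.0 h of serum stimulation was fitted well by a rhythm with a period of 3 h. They were measured by 16 probe sets (groups of short probes that together read 1 transcript), of 45037 probe sets on the array and of 18193 genes that a probe set names alone. A probe set was a member if the platform annotation named only 1 of the 5 genes, and 0 probe sets named a member together with another gene. Trps1 had 4 probe sets, Enpp3 5, Fnip1 3, Tmem170b 1 and Cpt1a 3. Each was tested, as no filter on low values was applied.

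The cells were C2C12, a mouse line of skeletal muscle precursors (myoblasts), grown in DMEM with 5% foetal bovine serum, held for 24 h in 0.2% serum and then given serum again. They were sampled every 0.5 h from parallel flasks as part of work on genes that oscillate while somites, the segments of the embryo, form. Total RNA from 13 time points, 0 to 6.0 h after the return of serum, was hybridised to 1 Affymetrix array each. There were no replicates, and all samples shared the low-serum treatment, so the 0 h array is the starved state and no unstarved control was analysed here. A culture gives RNA of the whole dish, so fewer cells with a transcript and less transcript per cell cannot be told apart.

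Cells that leave starvation pass through waves of transcription, and a gene that rises, falls and rises again can do so as a rhythm or in separate events. In the presomitic mesoderm, the tissue that forms somites, negative feedback of short-lived repressors gives rhythms of a few hours. The 5 genes are not core parts of that clock. Trps1 encodes a zinc finger repressor that binds GATA sites and acts in cartilage and hair. Enpp3 encodes a cell-surface enzyme that cleaves extracellular nucleotides. Fnip1 encodes a partner of folliculin and of the energy sensor AMPK. Tmem170b encodes a membrane protein. Cpt1a encodes the carnitine acyltransferase of the outer mitochondrial membrane, the entry step of long-chain fatty acids into oxidation.

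Deposited values are linear ratios against a reference particular to the probe set. They show change over time and no absolute level, and levels of different genes cannot be compared. By array, the median ratio was 0.977 to 1.00. The SD of log2 ratios over probe sets was 0.217 to 0.318 on the 6 arrays from 0 to 2.5 h and 0.188 to 0.229 on the 6 arrays from 3.0 to 5.5 h. Whether the cells were myoblasts could not be checked by level. Of the myoblast markers Myod1, Myf5, Des, Cdh15, Itga7, Pax7 and Mymk, 1 of 7 was called between these 2 sets of arrays, Pax7, a factor of muscle stem cells, at -0.36 ± 0.10 (SE of the fit; limma, adjusted p = 0.0481). This call was lost with arms of 0.5 to 3.0 h and 3.5 to 6.0 h (Pax7 at -0.29, adjusted p = 0.129 by limma). Of 11 markers of mast cells, leukocytes and endothelium, 0 were called by limma after adjustment. Among them Pecam1 alone passed 0.05 before adjustment.

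The genes were picked on measured values. Over all 13 arrays, a 3 h harmonic (cosine plus sine) was added to a smooth trend, and 142 of 45037 probe sets (0.315%) had an adjusted p under 0.05 (limma, Benjamini-Hochberg). By the size of the F statistic, the Trps1 probe sets 1438214_at and 1434286_at ranked 1 and 2, Enpp3 1439260_a_at 3, Fnip1 1449668_s_at 5, Tmem170b 1434556_at 7 and Cpt1a 1438156_x_at 10. In all, 9 of the 16 lay among the 142; this count describes the choice and is no finding. The last probe set inside that limit had an amplitude of 0.27 and the first outside one of 0.22 on the log2 scale. Fnip1 1434405_at lay just inside, at rank 132, and Cpt1a 1434866_x_at outside, at rank 248. Probe sets of the same genes ranged down to rank 39545, for Enpp3 1427303_at.

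**Figure D1:**
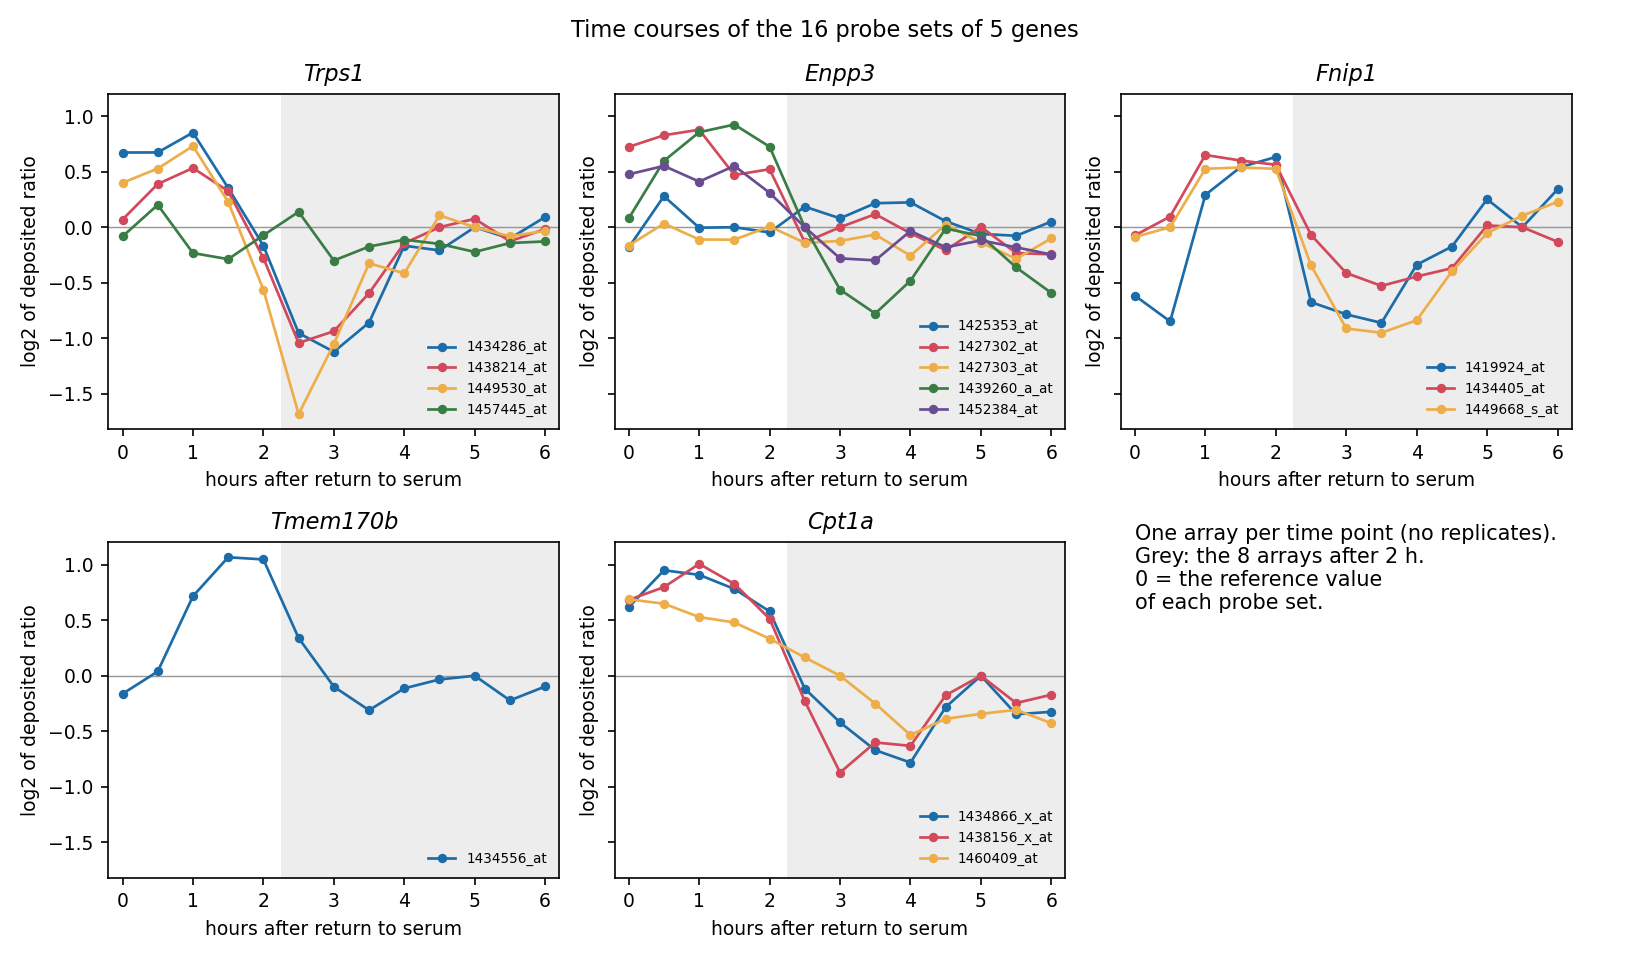
Log2 of the deposited ratio (vertical axis) against hours after the return to serum (horizontal axis) for the 16 probe sets, 1 panel per gene; each point is 1 array, 0 is the reference value of the probe set and the grey area holds the 8 arrays after 2 h. All 16 have their highest array at 0 to 2.0 h, and 13 have their lowest at 2.5 to 4.0 h. The shares over all probe sets were not taken.

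The common course was a high early level, a fall between 1.5 and 3.0 h, a low near 2.5 to 4.0 h and a partial return. The highest array was at 0 to 2.0 h in 16 of 16 probe sets and the lowest at 2.5 to 4.0 h in 13 of 16. These counts are a description, as all 13 arrays took part in choosing the genes. The shares over all probe sets were not taken. Trps1 1457445_at, Enpp3 1425353_at and Enpp3 1427303_at are in the 16, though they varied little, with log2 ranges of 0.50, 0.46 and 0.32. The median log2 range over the 13 arrays was 1.44 in the members and 0.52 in all probe sets.

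Trps1 held the deepest fall, in 1449530_at. The ratio of Trps1 1438214_at was 1.05 at 0 h, 1.31 at 0.5 h, 1.45 at 1.0 h, 1.25 at 1.5 h, 0.825 at 2.0 h and 0.485 at 2.5 h. It was then 0.522 at 3.0 h, 0.662 at 3.5 h, 0.905 at 4.0 h, 1.00 at 4.5 h, 1.05 at 5.0 h, 0.916 at 5.5 h and 0.989 at 6.0 h. After the low at 2.5 h the values climbed back to the level of the 0 h array. They stayed near it up to the last array at 6.0 h, without another fall of the same size by then. Trps1 1434286_at and 1449530_at had a like fall and rise, with lows of 0.459 at 3.0 h and 0.311 at 2.5 h. Their fall from peak to low was 3.94-fold and 5.34-fold. They did not return to the level of 0 h, which was 1.595 and 1.32. From 4.5 h on they stayed between 0.865 and 1.066 and between 0.945 and 1.077. The remaining probe set, 1457445_at, varied by 1.42-fold in all, and its correlation with the others over the 13 arrays was -0.168 to 0.078, where they correlated with each other at 0.884 to 0.942 (Pearson's r, a description, as the arrays are neighbours in time).

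Enpp3 showed the clearest second rise, in a single probe set. The ratio of Enpp3 1439260_a_at was 1.06 at 0 h, 1.51 at 0.5 h, 1.81 at 1.0 h, 1.90 at 1.5 h, 1.65 at 2.0 h and 1.00 at 2.5 h. It was 0.677 at 3.0 h, 0.583 at 3.5 h, 0.716 at 4.0 h, 0.992 at 4.5 h, 0.947 at 5.0 h, 0.778 at 5.5 h and 0.663 at 6.0 h. The arrays at 4.5 and 5.0 h were thus above those on either side, and all arrays from 3.0 h on were below those of 0 to 2.5 h. Enpp3 1427302_at and 1452384_at started high, at 1.65 and 1.39 at 0 h, and from 2.5 h on stayed between 0.844 and 1.09 and between 0.813 and 1.00. Enpp3 1425353_at and 1427303_at varied by 1.38-fold and 1.25-fold over all arrays. The 3 changing probe sets correlated at 0.752 to 0.886 and the other two at -0.23 to 0.392 with them and with each other.

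Fnip1 rose late within the first window. The ratio of Fnip1 1449668_s_at was 0.941 at 0 h, 1.00 at 0.5 h, 1.44 at 1.0 h, 1.45 at 1.5 h, 1.44 at 2.0 h and 0.788 at 2.5 h. It was 0.531 at 3.0 h, 0.517 at 3.5 h, 0.559 at 4.0 h, 0.759 at 4.5 h, 0.964 at 5.0 h, 1.08 at 5.5 h and 1.17 at 6.0 h. The high arrays were those of 1.0 to 2.0 h, and the values were still climbing at the last array. Fnip1 1419924_at moved most at the start, from 0.555 at 0.5 h to 1.55 at 2.0 h and back to 0.626 at 2.5 h, and reached 1.27 at 6.0 h. Fnip1 1434405_at had its high of 1.57 at 1.0 h, its low of 0.693 at 3.5 h and 1.01 at 5.0 h. Affymetrix marks with _s_at a probe set that can read more than 1 transcript and with _x_at one whose probes may cross-hybridise.

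Tmem170b had 1 early pulse. The ratio of its only probe set, 1434556_at, was 0.893 at 0 h, 1.03 at 0.5 h, 1.64 at 1.0 h, 2.10 at 1.5 h, 2.07 at 2.0 h and 1.27 at 2.5 h. It was 0.934 at 3.0 h, 0.806 at 3.5 h, 0.924 at 4.0 h, 0.977 at 4.5 h, 1.00 at 5.0 h, 0.857 at 5.5 h and 0.935 at 6.0 h. The arrays from 3.0 h on lay between 0.806 and 1.00, around the level of 0 h, and none came near those of 1.0 to 2.0 h.

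Cpt1a was already high in starved cells. The ratio of Cpt1a 1438156_x_at was 1.61 at 0 h, 1.74 at 0.5 h, 2.01 at 1.0 h, 1.78 at 1.5 h, 1.43 at 2.0 h and 0.853 at 2.5 h. It was 0.546 at 3.0 h, 0.659 at 3.5 h, 0.645 at 4.0 h, 0.885 at 4.5 h, 1.00 at 5.0 h, 0.843 at 5.5 h and 0.888 at 6.0 h. Cpt1a 1434866_x_at ran alike (r = 0.964 over 13 arrays), from 1.93 at 0.5 h to 0.581 at 4.0 h and 1.00 at 5.0 h. Cpt1a 1460409_at, whose name carries no mark of cross-hybridisation, fell at each step from 1.61 at 0 h to 0.690 at 4.0 h and then lay between 0.743 and 0.808. Its highest array after 4.0 h was below each of its arrays up to 3.5 h, so this probe set had no early peak and almost no return.

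The question put to these courses was whether a second peak came about 3 h after the first. The first peak was taken as the highest array from 0 to 2.0 h, and the second was located on the 8 arrays after 2 h alone, as the local maximum that stood out most. Its prominence is its height over the higher of the lowest values before and after it within these arrays. The arrays at 2.5 and 6.0 h, the ends of this set, could not count as a peak. A late peak has few arrays after it, which can limit its prominence. A peak that lay 2.5 to 3.5 h after the first and had a prominence of at least 0.3 on the log2 scale was counted as recurring.

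By this measure 1 of 16 probe sets had a recurring peak, against 9.38% of all probe sets (4225 of 45037). It was Enpp3 1439260_a_at, with peaks at 1.5 and 4.5 h, 3.0 h apart, and a prominence of 0.58. Even there the second peak regained 45.0% of the fall on the log2 scale and reached 52.2% of the ratio of the first. A second peak in the right place but of any prominence was found in 8 of 16 probe sets, against 48.4% of all, and a prominence of 0.3 at any time in 2 of 16, against 17.9%. Of the others, Trps1 1438214_at and 1434286_at had it 4.0 h after the first with prominences of 0.20 and 0.10, and Trps1 1449530_at 3.5 h after with 0.19. Fnip1 1419924_at had it after 3.0 h with 0.25, Fnip1 1434405_at after 4.0 h with 0.15, and Fnip1 1449668_s_at had no local maximum after 2 h at all. Tmem170b had it after 3.5 h with 0.22. Cpt1a 1434866_x_at was the only other probe set above 0.3, with 0.35, but 4.5 h after its first peak, and Cpt1a 1438156_x_at had 0.25 after 4.0 h. The median prominence was 0.21 in the 16 and 0.19 over all probe sets.

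After the low the values climbed back part of the way. Trps1 regained 56.8%, 71.0% and 74.1% of its drop in its 3 changing probe sets, and Fnip1 1419924_at regained 74.5%. Cpt1a 1438156_x_at regained 46.4%, Tmem170b 22.6% and Cpt1a 1460409_at 18.6%. The fall after the second peak was 0.10 to 0.20 in the 3 Trps1 probe sets, where the fall after the first had been 1.58 to 2.42. These falls cover unlike spans. The first ran from 1.0 h to the low at 2.5 or 3.0 h. The second was followed only from 4.5 or 5.0 h to the last array at 6.0 h, so a later fall would be missed. A recurring trough, defined in the same way, was found in 4 of 16 (9.75% of all): Enpp3 1439260_a_at, Fnip1 1434405_at, Fnip1 1449668_s_at and Tmem170b. In each of the 4 the first trough was the 0 h array, the starved state, and the second was at 3.5 h. No fall into the first was measured, so a repeated dip cannot be read from this count. Enpp3 1439260_a_at fell again after its second peak, to 0.663 at 6.0 h. In 0 of 16 probe sets was the second peak higher than the first, and Fnip1 1449668_s_at had no second peak to compare. The share over all probe sets was not taken, so this count is a description. With quantile normalization 3 of 16 recurred (12.9% of all), Fnip1 1419924_at and Cpt1a 1434866_x_at being added, and with a prominence of at least 0.2 it was 5 of 16 (22.3% of all).

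**Figure D2:**
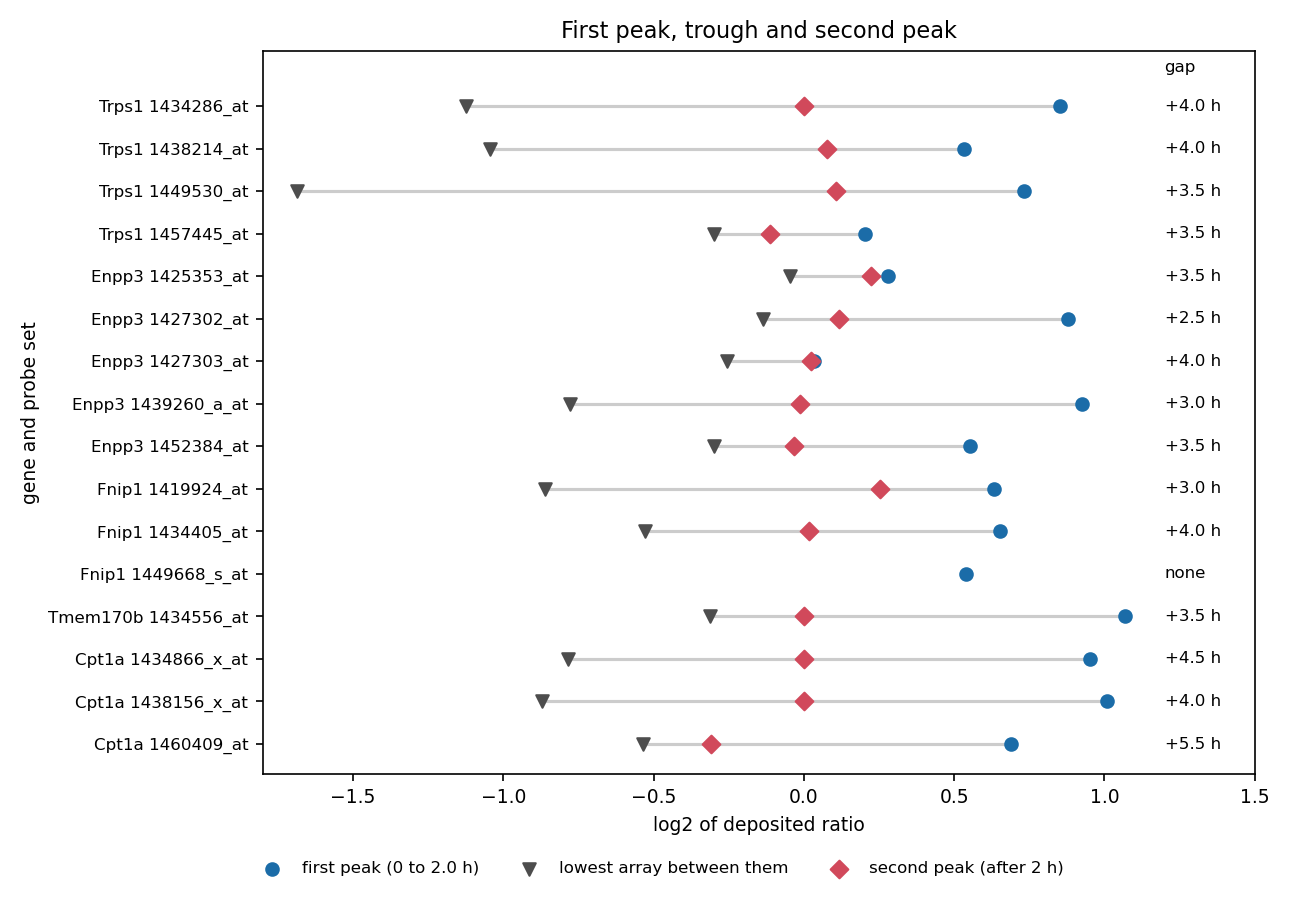
Log2 of the deposited ratio at the first peak (0 to 2.0 h, circles), at the second peak (after 2 h, diamonds) and at the lowest array between them (triangles) for each of the 16 probe sets; the column at the right gives the hours from the first to the second peak. In 15 probe sets the second peak lies below the first, and Fnip1 1449668_s_at has none.

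The same question was asked with a fitted curve on the arrays after 2 h alone: a 3 h cosine and sine beside a straight line. Those 8 arrays span 3.5 h, a little over 1 period, so the fit cannot tell a rhythm from 1 dip and return. They also took part in the choice of the genes, as 56.4% and 56.9% of the 2 directions of this fit lay along the fit over 13 arrays. The result is therefore given as a description. After adjustment over all probe sets by limma, 0 of 16 passed, and 0 of 45037 did (0%). At an unadjusted p under 0.05 it was 9 of 16, against 8.12% of all, a count from which nothing is read, since these arrays helped to choose the genes. Enpp3 1439260_a_at had an amplitude of 0.41 ± 0.06 (SE), and Trps1 1438214_at had 0.28 ± 0.05, where the fit over all arrays had given 0.49 ± 0.05 and 0.51 ± 0.05. For Tmem170b it was 0.18 ± 0.07 after 0.35 ± 0.04, and for Fnip1 1419924_at 0.19 ± 0.07 after 0.53 ± 0.08. Fnip1 1449668_s_at (0.37 ± 0.07 and 0.39 ± 0.05) and Cpt1a 1434866_x_at (0.33 ± 0.07 and 0.31 ± 0.06) had like amplitudes in both fits. The 2 fits differ in their trend as well as in their arrays. With a parabola in place of the straight line, Tmem170b had 0.27, Fnip1 1449668_s_at 0.30 and Trps1 1438214_at 0.26. Trps1 1449530_at then had 0.09, where the straight line had given 0.36.

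The time of the fitted maximum moved as well. A fitted 3 h curve has a maximum every 3 h, so that spacing is set by the fit and is no finding. Within 1 period, the maximum of Trps1 1438214_at was at 1.29 h over all arrays and 1.37 h on those after 2 h. For Enpp3 1439260_a_at it was 1.60 and 1.92 h, for Fnip1 1449668_s_at 1.66 and 2.32 h, and for Tmem170b 1.60 and 2.11 h. In Cpt1a 1434866_x_at it was 1.64 and 2.19 h.

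**Figure D3:**
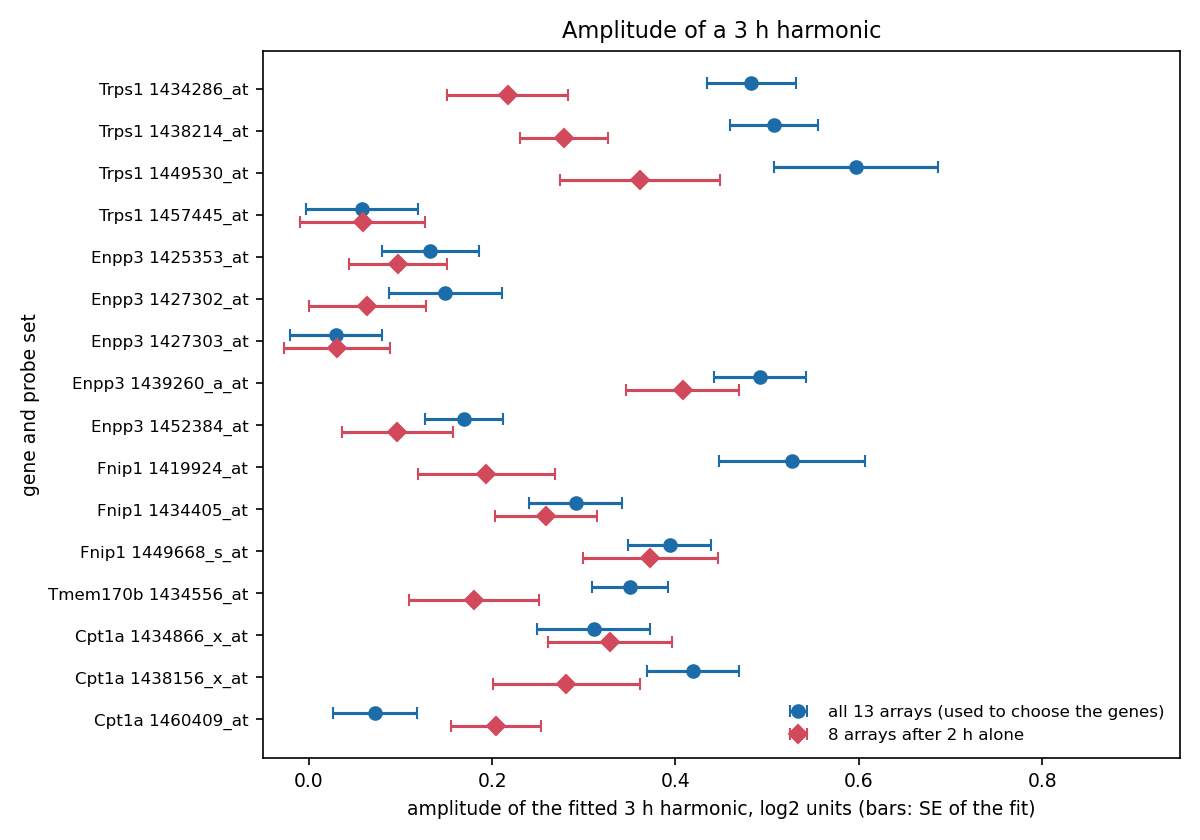
Amplitude of a fitted 3 h harmonic in log2 units (horizontal axis, bars are the SE of the fit) for the 16 probe sets, over all 13 arrays, which chose the genes (circles), and on the 8 arrays after 2 h alone (diamonds). Trps1 1438214_at goes from 0.51 to 0.28 and Tmem170b from 0.35 to 0.18, while Fnip1 1449668_s_at stays at 0.39 and 0.37. The 2 fits differ in their trend as well as in their arrays.

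Other periods were fitted too, as a description, since the 13 arrays chose the genes and 8 arrays over 3.5 h cannot resolve periods this close. Among periods of 2, 2.5, 3, 3.5 and 4 h on the arrays after 2 h, the smallest residual was at 2 h for 5 probe sets, at 2.5 h for 5, at 3 h for 2 and at 4 h for 4. Over all 13 arrays it was at 3 h for 5, at 3.5 h for 5 and at 4 h for 3. With a period of 4 h, 367 probe sets (0.815%) and 8 of the 16 passed over all arrays, and with 3.5 h 326 (0.724%) and 9 of the 16.

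The next comparison set the second 3 h against the first. Each arm holds 6 arrays, 3.0 to 5.5 h and 0 to 2.5 h, with 1 array at each phase of a 3 h cycle. A 3 h rhythm of constant amplitude cancels in it, whereas one that changes in amplitude can leave a difference. Of this contrast, 1.3% lay along the harmonic part of the fit that chose the genes and 89.0% along its smooth trend. The p-values measure the spread of the 6 differences between arrays 3 h apart, not variation between replicates. All arrays of this contrast also took part in choosing the genes. The members' counts and p-values, here and on the mean per gene, are therefore a description. Of the 16 probe sets, 9 were lower in the second 3 h and 0 were higher (limma, adjusted p under 0.05), against 4.59% and 4.07% of all probe sets (8.66% in either direction). The 9 belonged to 4 genes, Enpp3, Fnip1, Tmem170b and Cpt1a. By value, 15 of 16 were lower (46.6% of all), and the median difference was -0.60 against 0.01 over all probe sets.

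Cpt1a fell most. Cpt1a 1434866_x_at went from a mean of 0.62 to -0.42, a difference of -1.04 ± 0.17 (SE, adjusted p = 0.00641, lower in 6 of 6 pairs 3 h apart), or 2.05-fold. Cpt1a 1438156_x_at changed by -1.02 ± 0.20 (adjusted p = 0.0112), and Cpt1a 1460409_at by -0.78 ± 0.08 (adjusted p = 7.78e-04), each lower in 6 of 6 pairs. In Cpt1a 1460409_at the 2 sets of arrays did not overlap, which held for 3 of the 16 probe sets and 2.14% of all.

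Enpp3 fell in its 3 changing probe sets. Enpp3 1439260_a_at changed by -0.91 ± 0.13 (adjusted p = 0.00284), from a mean of 0.53 to -0.38, 1.88-fold lower. Enpp3 1427302_at changed by -0.61 ± 0.10 (adjusted p = 0.00555) and Enpp3 1452384_at by -0.57 ± 0.09 (adjusted p = 0.00566). All were lower in 6 of 6 pairs, and Enpp3 1439260_a_at and 1452384_at were the other two probe sets without overlap. The values of Enpp3 1425353_at (0.03 ± 0.08) and 1427303_at (-0.06 ± 0.06) were within their error.

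Tmem170b changed by -0.64 ± 0.14 (adjusted p = 0.0217, lower in 5 of 6 pairs), Fnip1 1434405_at by -0.58 ± 0.14 (adjusted p = 0.0261, 5 of 6) and Fnip1 1449668_s_at by -0.70 ± 0.19 (adjusted p = 0.0474, 5 of 6). These 3 calls depended on single arrays. Leaving out 1 array also takes its partner 3 h away out of the contrast. Without the pair at 1.0 and 4.0 h, that at 1.5 and 4.5 h or that at 2.0 and 5.0 h, Tmem170b had an adjusted p of 0.0783, 0.0794 and 0.0724. Fnip1 1434405_at missed the threshold without these or the pair at 0.5 and 3.5 h (adjusted p up to 0.0946), and Fnip1 1449668_s_at without any pair but that of 2.5 and 5.5 h (adjusted p up to 0.150). Fnip1 1419924_at was at -0.21 ± 0.16 (adjusted p = 0.510), and at -0.38 without the 2.5 and 5.5 h arrays (adjusted p = 0.0476).

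Trps1 was not called in any probe set. Its differences were -0.65 ± 0.30 (1434286_at, adjusted p = 0.244), -0.29 ± 0.23 (1438214_at, adjusted p = 0.537), -0.24 ± 0.34 (1449530_at, adjusted p = 0.757) and -0.13 ± 0.08 (1457445_at, adjusted p = 0.421), each lower in 4 of 6 pairs. Its low at 2.5 h lies in the first arm and that at 3.0 h in the second. Without the 2.5 and 5.5 h arrays, 1434286_at passed (adjusted p = 0.0320). When the arms were 0.5 to 3.0 h and 3.5 to 6.0 h, 5 of the 16 passed, the 3 changing Enpp3 probe sets, Tmem170b and Cpt1a 1460409_at, while Cpt1a 1434866_x_at (adjusted p = 0.0535), Cpt1a 1438156_x_at (adjusted p = 0.218) and both Fnip1 calls were lost, and Trps1 1438214_at and 1449530_at changed sign.

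A control for 18S ribosomal RNA, read at its 5′ end, had ratios of 0.411 to 1.40 on the first 6 arrays and 0.397 to 3.92 on the second 6. Its lowest array was at 3.0 h and its highest at 6.0 h (5.24), outside this comparison. The control for the middle of this RNA moved less, from 0.752 to 1.085 to 0.725 to 1.40. That for its 3′ end went from 0.731 to 1.035 to 0.949 to 1.503. The part of these controls in the differences was not tested.

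**Figure D4:**
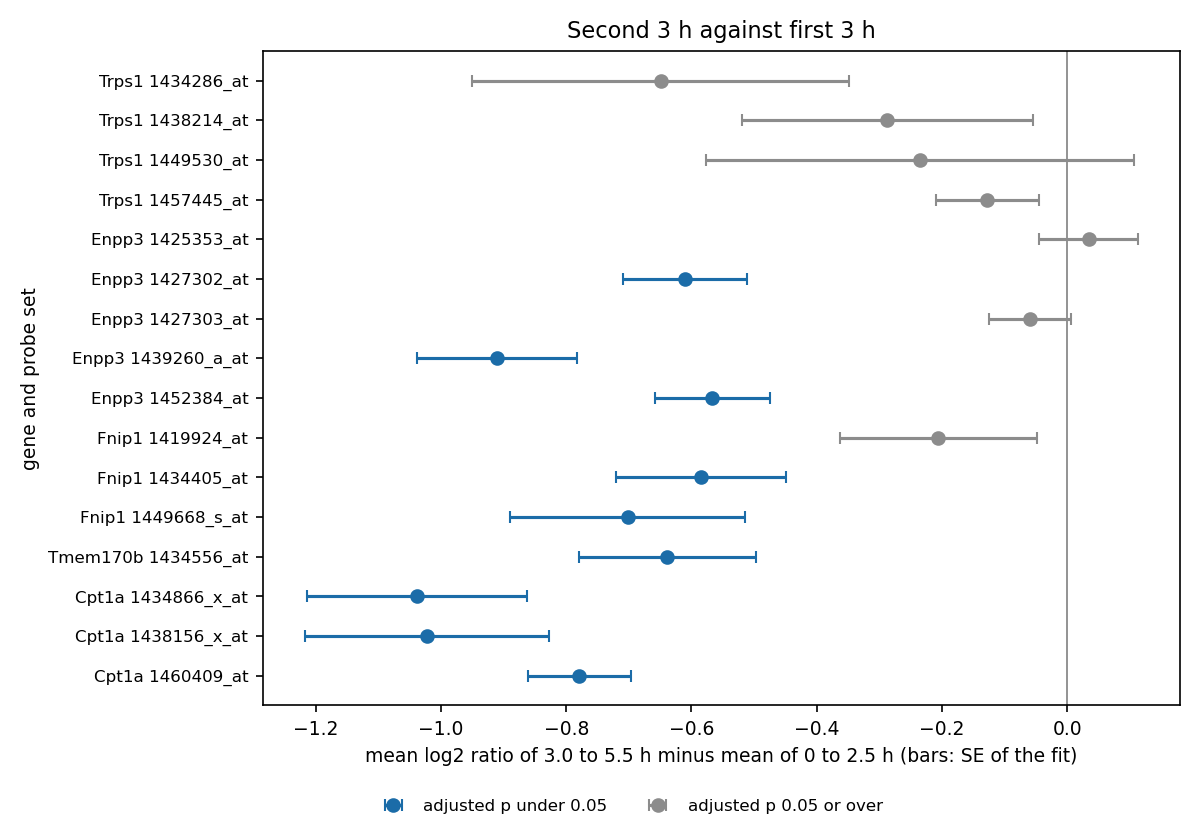
Difference of the mean log2 ratio of 3.0 to 5.5 h minus that of 0 to 2.5 h (horizontal axis, bars are the SE of the fit) for the 16 probe sets; blue points have an adjusted p under 0.05. The 9 blue points lie between -1.04 and -0.57, and the 4 Trps1 probe sets are grey. These arrays took part in choosing the genes, so the calls are a description.

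The shares of variation are given as a description, as these arrays took part in choosing the genes by a 3 h harmonic. Over the 12 arrays of both cycles, the part shared by arrays 3 h apart (phase) held a median of 28.3% of the sum of squares in the 16 probe sets, and 36.1% over all probe sets. The step between the cycles held 45.6%, against 12% over all. Phase has 6 levels and the step is a single difference, so each share is to be read against that over all probe sets. The share for phase was highest in Fnip1 1419924_at, with 77.0% against 3.78% for the step, and the share for the step was highest in Cpt1a 1460409_at, with 83.8% against 11.3% for phase. In Trps1, 55.0% to 64.5% lay in neither part for the 3 changing probe sets.

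The courses most like the members, by Pearson's r over 13 arrays among 3501 probe sets that name another gene and have an SD of at least 0.3, are given as a description. For Trps1 1449530_at they were Tmem131l (0.945) and Baz2b (0.926), both with a high at 1.0 h and a low at 2.5 h. For Enpp3 1439260_a_at they were Colec12 (0.933) and Rnf19a (0.928), with a high at 1.0 h, a low at 3.5 h and a second peak at 5.0 and 4.5 h of prominence 0.52 and 0.36. For Fnip1 1419924_at they were Zzz3 (0.942) and Rabgef1 (0.900). For Tmem170b they were Phf3 (0.972) and Homer1 (0.969), the latter with a high of 2.66 at 1.5 h on the log2 scale, and for Cpt1a 1438156_x_at Zbtb20 (0.975) and Klhl24 (0.967), each with its high at 1.0 h and its low at 3.0 h.

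Other genes of the members' pathways were compared between the second and the first 3 h on the mean over each gene's probe sets, where 5.79% of all 18193 genes were lower and 5.94% higher (limma, adjusted p under 0.05). On this scale Cpt1a was at -0.95 ± 0.14 (adjusted p = 0.00370), Enpp3 at -0.42 ± 0.06 (adjusted p = 0.00290), Tmem170b at -0.64 ± 0.14 (adjusted p = 0.0196), Fnip1 at -0.50 ± 0.16 (adjusted p = 0.0712) and Trps1 at -0.32 ± 0.22 (adjusted p = 0.409). Of the genes of the carnitine shuttle, fatty acid oxidation and its regulators, 7 of 27 were lower, 1 was higher and 19 were not called, with a median of -0.08 against 0.01 over all genes. Cpt1b and Acsl1 were on this list of 29 too, but no probe set named them alone, so they were not measured. Lower were Acsl3 (-0.67 ± 0.08, adjusted p = 0.00151) and Acsl4 (-0.61 ± 0.11, adjusted p = 0.00809), which activate long-chain fatty acids upstream of Cpt1a. The gene that rose was Angptl4 (0.63 ± 0.12, adjusted p = 0.00865), which encodes a secreted inhibitor of lipoprotein lipase. With the arms moved to 0.5 to 3.0 h and 3.5 to 6.0 h, Angptl4 was at 0.46 and missed the threshold (adjusted p = 0.0778). The other 5 that fell, named after their values were seen, were Pdk4 (-0.59), which restrains glucose oxidation, the acyl-CoA dehydrogenase Acadm (-0.48), Cpt1c (-0.33), the lipid droplet coat gene Plin2 (-0.25) and Acaca (-0.23), whose product makes malonyl-CoA, the inhibitor of Cpt1a.

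In the folliculin, AMPK and lysosomal nutrient sensing list, 1 of 23 was lower and 0 were higher, with a median of -0.08. It was Tfe3 (-0.24 ± 0.06, adjusted p = 0.0385), a transcription factor held in the cytosol through folliculin, and it missed the threshold after quantile normalization (adjusted p = 0.0536). Of the GATA-type factors, 1 of 11 was lower and 0 were higher, with a median of -0.04; this was Zfpm1 (-0.48 ± 0.11, adjusted p = 0.0196), a cofactor of GATA factors. Of the ectonucleotidases, 0 of 12 were lower and 1 was higher, with a median of 0.06; this was Entpd6 (0.26 ± 0.07, adjusted p = 0.0318), a nucleoside diphosphatase. Tmem170, the paralogue of Tmem170b, was at 0.06 ± 0.06 (adjusted p = 0.612 by limma). Not measured were Rragb of the folliculin list and Enpp1, Enpp2, Enpp7 and Entpd4 of the ectonucleotidases.

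For Enpp3, Fnip1, Tmem170b and Cpt1a, the windows from 250 bases before to 50 after 1 annotated start each were searched on both strands for 5 motifs. The sequences are RefSeq's on GRCm38.p6, and these 4 of the 5 genes had an entry, while Trps1 had none. The Cpt1a window, chr19:3323051-3323350, lies inside the gene, whose annotated span begins at 3322326, so sequence around that outer start was not searched. The motif CACGTG (E-box) was in Fnip1 alone, at position 176 of the window, and in 7.15% of 32851 windows of the same length. None of the 4 windows held TGACGTCA, the cAMP response element, which 1.79% of all windows hold. The AP-1 motif TGANTCA, in 7.81% of all windows, was in none of the 4 either. The same held for the GATA motif AGATAA (11.2% of all). It held also for the forkhead motif TGTTTAC (3.65% of all). The windows differed in base composition, from 5 CG dinucleotides in Enpp3 to 22 in Cpt1a, 34 in Fnip1 and 49 in Tmem170b, with a median of 7 over all windows. Those of Fnip1, on chr11:54437929-54438228 (plus strand), and Enpp3, on chr10:24836146-24836445 (minus strand), are printed 5′ to 3′ to show this contrast between 2 of the genes. Capitals mark the E-box.
Fnip1: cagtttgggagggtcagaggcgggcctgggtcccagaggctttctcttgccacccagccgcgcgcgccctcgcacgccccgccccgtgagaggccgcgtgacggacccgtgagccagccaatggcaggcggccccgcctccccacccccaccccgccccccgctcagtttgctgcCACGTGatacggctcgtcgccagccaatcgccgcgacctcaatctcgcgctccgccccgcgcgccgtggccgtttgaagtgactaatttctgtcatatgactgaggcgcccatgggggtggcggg
Enpp3: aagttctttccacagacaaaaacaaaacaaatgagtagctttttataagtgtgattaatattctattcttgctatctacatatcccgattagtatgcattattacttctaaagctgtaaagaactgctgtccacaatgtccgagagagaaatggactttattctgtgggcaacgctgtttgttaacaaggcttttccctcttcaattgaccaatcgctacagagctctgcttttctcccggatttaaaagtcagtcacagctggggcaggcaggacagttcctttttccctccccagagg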

How the data were processed

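Labelled cRNA made from total RNA was read on 13 Affymetrix arrays, per the labels' protocols. The values are linear ratios as the authors deposited them; RMA was used per the submitters' processing notes, and no source used here says how the ratios were formed. A probe set's ratio was exactly 1 on 1 array in 36481 probe sets. Excluded were 64 array controls. Log2 ratios of all 45037 probe sets were fitted with limma 3.58.1 (lmFit, eBayes, two-sided) in R 4.3.3, with Benjamini-Hochberg adjustment over all and a threshold of 0.05. Over 13 arrays the trend was a natural cubic spline with 3 degrees of freedom. The second minus first 3 h contrast had phase (6 levels) as a block. The fits were tested on simulated data. Tables and figures used Python 3.11.15, pandas 2.3.3 and matplotlib 3.10.9. The number of arrays limits the precision. Members, lists and tests were chosen with earlier results of these data known. Named genes were the members, the 2 genes most like each, and per list up to 3 called genes with the largest difference, other names being marked in the text. Alternatives were other normalizations, trends, periods, priors, prominences, arms and leaving out each array.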

Additional observations from a re-analysis of the deposited data

How the results depend on the processing

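The fits over arrays rest on 1 array per time point. For the 3 h harmonic after 2 h, 0 members passed under each of the alternatives run. Over all probe sets 6 passed with a period of 3.5 h and 9 with 4 h, and 0 under the other alternatives, leaving out each array included. In the second minus first 3 h contrast, 5 members passed with arms of 0.5 to 3.0 h and 3.5 to 6.0 h, and 2135 genes passed (1054 lower) with 1 mean per gene, where fewer features are tested. Leaving out each array gave 1913 to 5628 probe sets, 986 to 3491 of them lower, and 6 to 11 members. With the shifted arms the sign turned for Trps1 1438214_at (0.034), Trps1 1449530_at (0.177), Enpp3 1425353_at (-0.014) and Fnip1 1419924_at (0.010), none of them called, and without single arrays Trps1 1449530_at ran from -0.60 to 0.0085 and Enpp3 1425353_at from -0.011 to 0.094. In the pathway lists, the shifted arms gave 1 higher GATA-type factor, 2 lower folliculin and AMPK genes and 0 higher fatty acid genes, and quantile normalization gave 0 lower folliculin and AMPK genes and 2 higher fatty acid genes. Recurring second peaks numbered 10039 probe sets and 5 members at a prominence of 0.2, 493 probe sets at 0.5 and 1589 at exactly 3.0 h, and 3 members after quantile normalization. Without single arrays, recurring second peaks numbered 2741 to 4490 probe sets and 1 member. A recurring trough by the measure used was found in 4 members (9.75% of all), each with the 0 h array as its first trough. The cause of these shifts was not tested. Arrays 3 h apart were paired through the phase block, and without that block 9 members passed. By replicate number, no pairing could be made because each time point has 1 array.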
